A study of Mus musculus with 24 samples.

Results

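The injury response that remained in the brain of mice given PLX3397 and Anakinra together was described from the gap between 5 PLX3397+Anakinra mice with traumatic brain injury (TBI) and 4 sham mice, which are 9 of the 24 mice of the study. All were male mice, labelled C57BL6N and 12 to 16 weeks of age, although the methods name C57BL/6JRj mice and a narrower age range, with 1 RNA sequencing library per mouse taken 5 days after injury (5 dpi). The PLX3397+Anakinra mice had a controlled cortical impact over the right parietal cortex, ate chow with 290 mg/kg PLX3397 from soon after the impact until 5 dpi, and received repeated subcutaneous injections of 100 mg/kg Anakinra. The sham mice were anesthetized, had the scalp cut and sutured, and received vehicle chow and saline, with no craniotomy and no impact. The vehicle TBI group (5 mice) had the same impact with vehicle chow and saline, and the PLX3397 and Anakinra groups (5 mice each) had 1 of the drugs. No group had a drug without TBI, so that in each contrast with sham the effects of the impact, of the craniotomy and of the drugs on uninjured tissue cannot be told apart. Animal numbers ending in B occur in the vehicle group alone, and what this letter marks is not stated.

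Controlled cortical impact kills tissue at the impact site, and the cells around it respond in known ways. Microglia, the resident macrophages of the brain, and macrophages that enter from the blood clear debris, astrocytes enlarge and raise intermediate filaments such as GFAP, and fibroblast-like cells lay down collagen in the lesion core. PLX3397 blocks CSF1R, the receptor kinase whose signal microglia and many macrophages need to survive, and it also acts on the related kinases KIT and FLT3. Anakinra is a recombinant form of the interleukin-1 receptor antagonist, which occupies the interleukin-1 receptor without activating it. Microglia and interleukin-1 are both known contributors to inflammation after brain injury.

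Expression was deposited as TPM, which scales reads by gene length and by library size, and 17267 of the 36333 listed genes, those averaging 0.5 TPM or more across all 24 libraries, were tested. Between 22160 and 22755 genes were above 0 in each of the 9 libraries. Values of single mice are given in the order J03, J04, J09, J10 and J17 for PLX3397+Anakinra, J07, J08, J15 and J16 for sham, and J01B, J17B, J18B, J19B and J20B for vehicle. The mean absolute difference between 2 mice of a group, over the genes tested, lay between 0.146 and 0.191 in log2(TPM + 1) for the PLX3397+Anakinra mice and between 0.144 and 0.176 for the sham mice. The tissue is labelled cortex, whereas the methods describe a quadrant that also held striatum, dorsal hippocampus and thalamus, and genes of those regions were present: 11 striatal genes summed to 1678 to 2202 TPM in the PLX3397+Anakinra mice and 1626 to 1909.7 TPM in the sham mice, 10 thalamic genes to 353 to 475 and 406 to 479.9 TPM, and 10 hippocampal genes to 276 to 319 and 297 to 315 TPM. None of the striatal and thalamic genes passed the test in either direction, except that 6 striatal genes were higher with only both compared groups in the fit, 1 thalamic gene was lower in that fit, 1 was lower without J10, and 1 was higher without J04. Over the same genes, the vehicle mice differed from each other by 0.136 to 0.232, most between J17B and J19B. Vehicle mice J17B and J20B stood apart from the other 3 vehicle mice in collagen genes, so results on those genes against vehicle are given with and without both. Other lists shifted too without both: 18 in place of 14 cell cycle genes were lower than in vehicle, while activated phagocyte genes stayed at 22. Unless stated, vehicle values and shares of the vehicle difference include all 5 vehicle mice.

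The large differences from sham were nearly all rises. Under the rule for differentially expressed genes (DEGs: unadjusted p below 0.05, a ratio of the group means above 2 and a difference above 4 TPM), 490 genes were higher than in sham (2.84% of the genes tested) and 10 were lower (0.0579%). At a Benjamini-Hochberg adjusted p below 0.05 in limma, which sets no limit on size, 3578 genes were higher (20.7%) and 3124 were lower (18.1%). Lower genes were thus nearly as many, but by small steps: 611 of the higher genes and 9 of the lower genes moved by at least 1 on the log2 scale. The TPM values of the 5 PLX3397+Anakinra mice all lay above those of the 4 sham mice for 2918 genes (16.9%) and all below them for 2424 genes (14%). Vehicle TBI against the same 4 sham mice gave 882 higher (5.11%) and 27 lower (0.156%) DEGs. PLX3397 alone gave 618 (3.58%) and 14 (0.0811%), and Anakinra alone 905 (5.24%) and 9 (0.0521%).

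**Figure D1:**
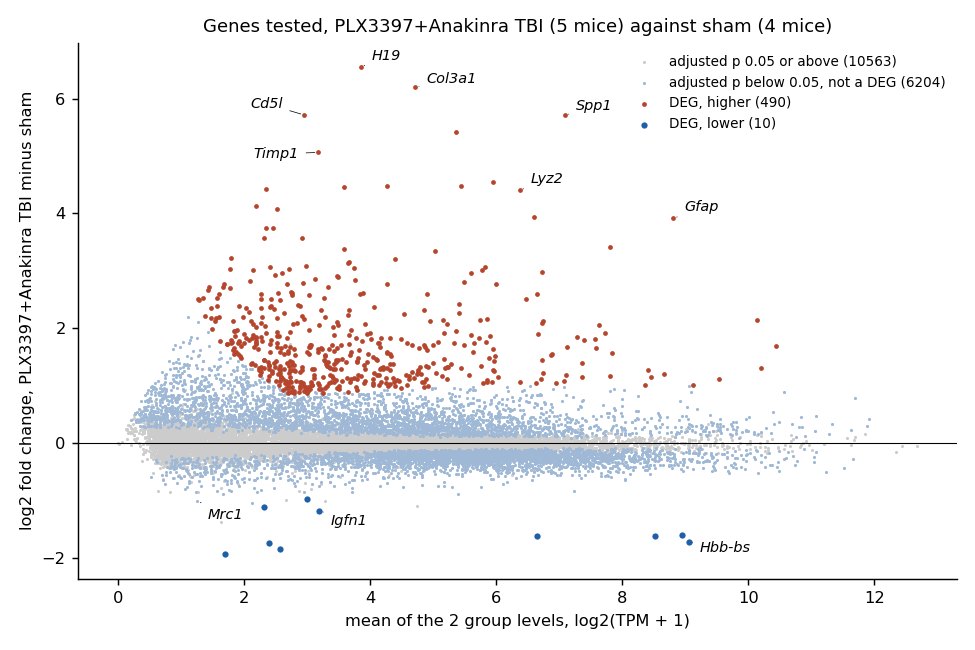
Each point is 1 of the 17267 genes tested, with its mean level over both groups in log2(TPM + 1) on the horizontal axis and its log2 fold change, PLX3397+Anakinra TBI minus sham, on the vertical axis. The 490 higher DEGs reach up to a log2 fold change of 6.55 for H19, whereas the 10 lower DEGs lie between -0.98 and -1.94.

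Among the DEGs without overlap between the groups, the 8 with the largest log2 fold change were H19, Col3a1, Cd5l, Spp1, Col1a1, Timp1, Col1a2 and Gpnmb. H19, an imprinted non-coding RNA of growing and regenerating tissue (chromosome 7, 142575530 to 142578146, GRCm38.p6), was at 224, 125, 150.2, 109 and 96.8 TPM in the 5 PLX3397+Anakinra mice and at 0.373, 0.237, 0.602 and 0.625 TPM in the 4 sham mice, a log2 fold change of 6.55 ± 0.53 (SE; adjusted p = 5.5e-10). Its lowest PLX3397+Anakinra value lay far above its highest sham value. Spp1, which encodes osteopontin, a secreted phosphoprotein of activated phagocytes (chromosome 5, 104435111 to 104441053), was at 1318, 1129, 802, 844 and 850.1 TPM against 15.9, 16.8, 19.5 and 18.3 TPM, a log2 fold change of 5.71 ± 0.22 (SE; adjusted p = 8.4e-16). Cd5l, a protein that macrophages secrete (chromosome 3, 87357881 to 87371074), was at 66.97, 87.3, 46.01, 40.5 and 40.95 TPM and at 0, 0.0666, 0 and 0.108 TPM, so that it was listed at or near 0 in every sham mouse and above 40 TPM in every PLX3397+Anakinra mouse. Since a whole piece of tissue was sequenced, more cells of a type and more RNA per cell cannot be told apart for any of these genes.

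The receptor targets of the drugs were not uniformly changed. Csf1r, the target of PLX3397 and a receptor of microglia and macrophages, was at 83.8, 78.1, 70.95, 82.1 and 72.6 TPM in the PLX3397+Anakinra mice and at 62.5, 60.8, 60.5 and 61.2 TPM in sham, a log2 fold change of 0.33 ± 0.10 (SE; adjusted p = 0.0076). It was still above sham in 5 of 5 mice, whereas the vehicle mice were at 211, 194, 239.9, 241 and 247 TPM, and the difference between the TBI groups was -1.53 ± 0.09 (SE; adjusted p = 4.3e-11). Csf1, which encodes its ligand, rose by 1.28 ± 0.10 on the log2 scale (SE; adjusted p = 1.7e-10), from 15.9 to 17.3 TPM in sham to 37.6 to 46.1 TPM. Il34, the other CSF1R ligand, which neurons make, was at 57.3 to 60.6 TPM against 60.2 to 65.1 TPM and did not pass the test (log2 fold change -0.09, adjusted p = 0.21). Both other kinase targets were lower than in sham: Flt3 with a log2 fold change of -0.41 (adjusted p = 0.00077) and Kit with a log2 fold change of -0.26 (adjusted p = 0.0062). For neither of these did the difference from vehicle pass the test, with 95% intervals of -0.07 to 0.28 for Flt3 and -0.15 to 0.14 for Kit.

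Of 15 tested genes of the interleukin-1 axis (ligands, receptors and inflammasome genes), 12 were higher than in sham and none was lower, with a median log2 fold change of 0.61 against 0.94 in vehicle TBI. Il1r1, the signaling receptor that Anakinra occupies, was at 9.85, 8.72, 11.9, 8.42 and 9.16 TPM in the PLX3397+Anakinra mice against 3.53, 3.54, 4.95 and 4.37 TPM in sham, a log2 fold change of 1.06 ± 0.14 (SE; adjusted p = 9.6e-07). Its values overlapped with those of the vehicle mice (6.61 to 11.4 TPM). Both interleukin-1 ligand genes, Il1a and Il1b, were below 1 TPM in these mice. Il1a was at 0.543 to 0.901 TPM against 0.295 to 0.447 TPM (log2 fold change 0.27, adjusted p = 0.043), and Il1b was at 0.4201 to 0.789 TPM against 0.142 to 0.461 TPM, which did not pass the test (log2 fold change 0.32, adjusted p = 0.067). The call of Il1a was lost without J03, J10 or any 1 of the 4 sham mice, and Il1b passed without J08. Il1a was also lost with only both compared groups in the fit (adjusted p = 0.063). Il1b also passed with 0.1 in place of 1 added to TPM (log2 fold change 0.95, adjusted p = 0.017). Il1rn, the gene of the natural antagonist, was at 1.71, 0.455, 0.732, 1.02 and 1.37 TPM in the PLX3397+Anakinra mice and at 0.0504, 0, 0 and 0 TPM in sham, where 3 of 4 libraries list it at 0. The inflammasome adaptor Pycard rose by 1.12 on the log2 scale (adjusted p = 3.7e-07) and the inflammatory caspase Casp4 by 1.15 on the log2 scale (adjusted p = 3.1e-06). Nlrp3, the inflammasome sensor, was at 0.819 to 1.302 TPM against 0.627 to 0.866 TPM and did not pass (log2 fold change 0.18, adjusted p = 0.25), and its difference from vehicle was -1.07 ± 0.11 (SE; adjusted p = 1.0e-07).

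Gene lists gave the outline of the response. Across 48 lists of cell types and pathways, the medians of the log2 fold change over sham ran from -1.62 for hemoglobin genes to 2.52 for reactive astrocyte genes, beside a median of -0.01 over all genes tested. Of all genes tested, 20.7% were higher and 18.1% lower than in sham under both drugs, the shares to set beside counts of list members. Vehicle TBI was set against the same 4 sham mice. Reactive astrocyte, interferon and cell cycle lists had medians of 2.52, 1.57 and 1.27, beside 3.12, 2.21 and 1.72 in vehicle TBI. Lists of homeostatic microglia, border macrophages and MHC class II had medians of 0.12, 0.52 and 0.37, beside 1.22, 2.59 and 2.27. Of the lists named here, scar matrix had a higher median than in vehicle TBI, with a median difference between the TBI groups of 1.05, which was 0.42 without vehicle J17B and J20B.

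**Figure D2:**
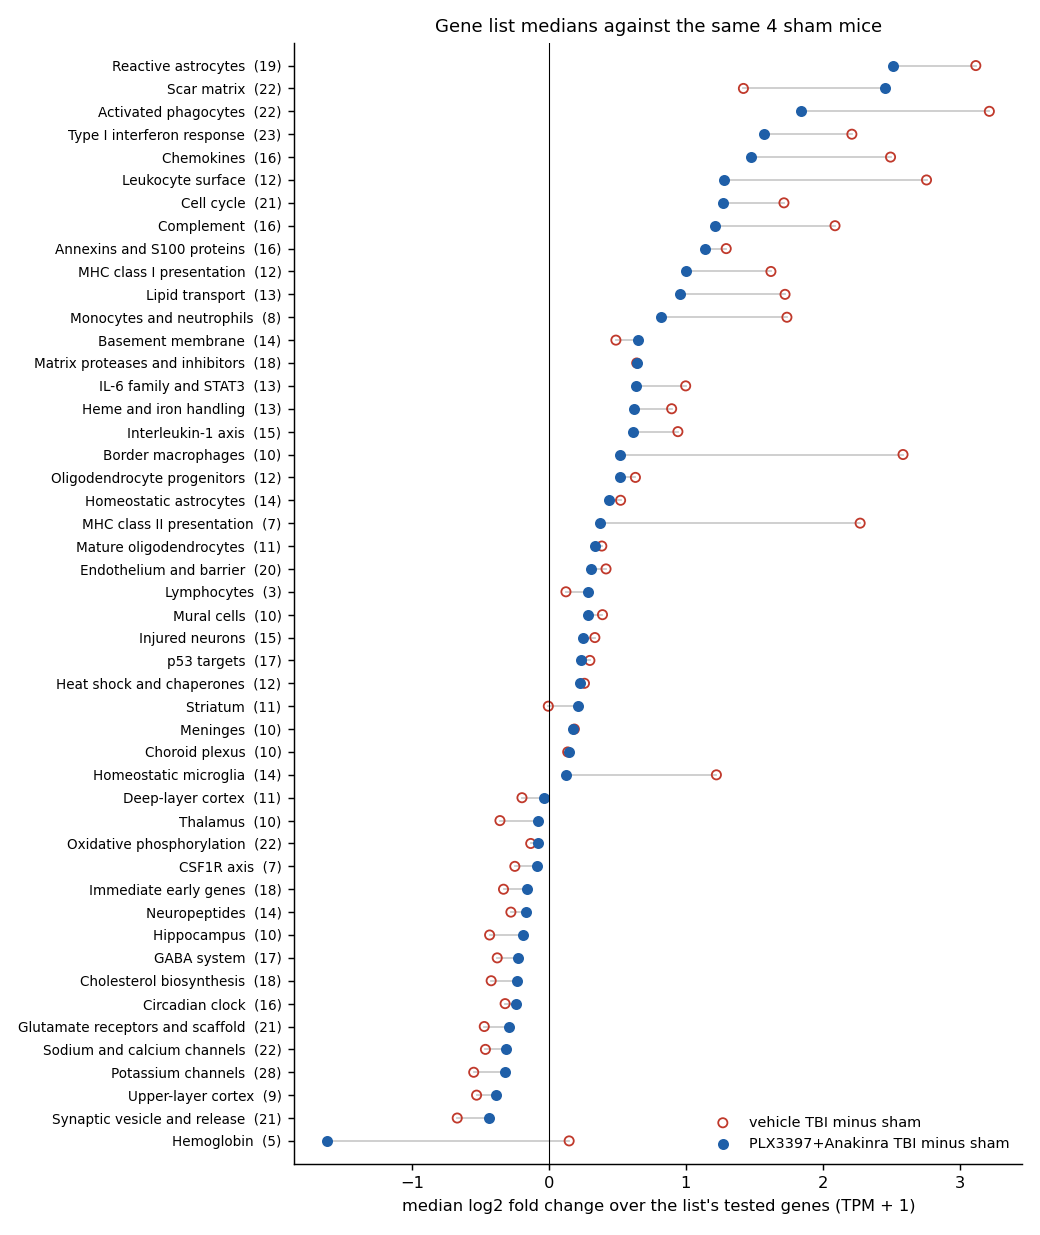
Each row is 1 gene list with its number of tested genes in parentheses, and the horizontal axis gives the median log2 fold change over sham in PLX3397+Anakinra TBI (filled) and vehicle TBI (open). Filled points lie at 2.52 for reactive astrocytes, 2.46 for scar matrix, 0.12 for homeostatic microglia and -1.62 for hemoglobin, against open points at 3.12, 1.42, 1.22 and 0.15. All 5 vehicle mice, J17B and J20B included, enter the open points.

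Genes of the reactive astrocyte list stayed raised under both drugs. Some members, such as Cxcl10, C4b, Timp1 and Osmr, are also in other lists, and bulk tissue does not show which cells held their RNA. Of 19 reactive astrocyte genes, 18 were higher than in sham (20.7% of all genes were), none was lower, and the median log2 fold change was 2.52. Gfap, the intermediate filament that marks astrocyte reactivity (chromosome 11, 102887336 to 102897200), was at 1955, 1664, 1655, 1830.1 and 1598 TPM in the PLX3397+Anakinra mice and at 122, 112, 119 and 106 TPM in the sham mice, a 15.2-fold ratio of means and a log2 fold change of 3.91 ± 0.10 (SE; adjusted p = 7.4e-19). All 5 values lay among those of the vehicle mice (1593, 1589, 2437, 2022 and 2085 TPM), and the difference from vehicle was -0.14 ± 0.10 (SE; adjusted p = 0.34), with a 95% interval of -0.34 to 0.06. Vim, a second intermediate filament, was at 621 to 871 TPM against 60.96 to 76.4 TPM in sham (log2 fold change 3.41, adjusted p = 2.1e-15), with an interval of the difference from vehicle of -0.50 to 0.03. Serpina3n, a secreted protease inhibitor of reactive astrocytes (chromosome 12, 104406646 to 104414334) and 1 of a family of near-identical copies that can share reads, was at 432, 411, 337, 385 and 325 TPM against 23.7, 24.4, 24.4 and 22.4 TPM, a log2 fold change of 3.93 ± 0.12 (SE; adjusted p = 1.3e-17). It was lower than in vehicle, with a log2 difference of -0.48 (adjusted p = 0.0042).

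Timp1, an inhibitor of matrix metalloproteinases (chromosome X, 20870166 to 20874737), was at 54.98, 54.3, 44.5, 49.2 and 53.5 TPM against 0.479, 0.457, 0.703 and 0.618 TPM, a log2 fold change of 5.06 ± 0.28 (SE; adjusted p = 5.9e-13), and its values spread less than those of the vehicle mice, which ran from 18.2 to 61.7 TPM. Tgm1, a transglutaminase, was at 18.6 to 29.5 TPM against 0.03398 to 0.126 TPM (log2 fold change 4.43, adjusted p = 2.8e-16). The 1 member that did not pass was Gap43, a growth cone protein that neurons express strongly, at 364 to 418 TPM against 382 to 458 TPM (log2 fold change -0.08, adjusted p = 0.41). Lcn2, a secreted iron-siderophore carrier and a member of the list that the naming rule did not select, was at 16.7, 17.4, 54.8, 12.2 and 15.96 TPM, and mouse J09 lay well above the other 4. Compared with vehicle, 7 of the 19 genes were lower (9.6% of all genes were) and none was higher (7.88% of all genes were), and 11 were lower without vehicle J17B.

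Genes of resting astrocytes rose too, by smaller steps. Of 14 tested, 13 were higher than in sham and none was lower, with a median of 0.44. Aqp4, the water channel of astrocyte endfeet, was at 215, 208, 144, 208 and 204 TPM against 46.8, 51.7, 54.95 and 52.4 TPM, a log2 fold change of 1.89 ± 0.11 (SE; adjusted p = 1.2e-12). Mouse J09 had the lowest of the 5 values and still lay above every sham mouse. Gja1, the gap junction protein connexin, rose by 0.94 on the log2 scale (adjusted p = 2.1e-11) and Aldh1l1, an enzyme of folate metabolism used as an astrocyte marker, by 0.76 on the log2 scale (adjusted p = 3.2e-08). Fgfr3, a growth factor receptor of astrocytes, was at 72.4 to 85.6 TPM against 70.6 to 76.3 TPM and did not pass (log2 fold change 0.09, adjusted p = 0.16).

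The interleukin-6 family and STAT3 list, a pathway known for its part in astrocyte reactivity, had 9 of 13 genes higher and 1 lower than in sham, with a median of 0.64. Osmr, the oncostatin M receptor, was at 13.2, 13.8, 15.05, 12.8 and 12.8 TPM against 2.27, 1.59, 3.103 and 2.92 TPM, a log2 fold change of 2.09 ± 0.13 (SE; adjusted p = 8.2e-12). The difference from vehicle was -0.02 with an interval of -0.28 to 0.24. Socs3, a feedback inhibitor of STAT3 signaling, was at 11.1, 9.67, 16.3, 13.3 and 9.61 TPM against 2.05, 2.47, 2.55 and 2.31 TPM (log2 fold change 1.94, adjusted p = 8.0e-10), and Bcl3, a nuclear partner of NF-kB, at 6.75 to 10.6 TPM against 0.735 to 1.15 TPM (log2 fold change 2.28, adjusted p = 7.9e-12). Cntf, a cytokine of astrocytes and Schwann cells, rose by 2.02 on the log2 scale (adjusted p = 8.7e-12) and was lower than in vehicle, with a log2 difference of -0.52 (adjusted p = 0.0032). Jak1, a kinase of the pathway, was the lower member, with a log2 fold change of -0.09 (adjusted p = 0.044), a call lost without J03, J04, J09, J10, J15 or J16.

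**Figure D3:**
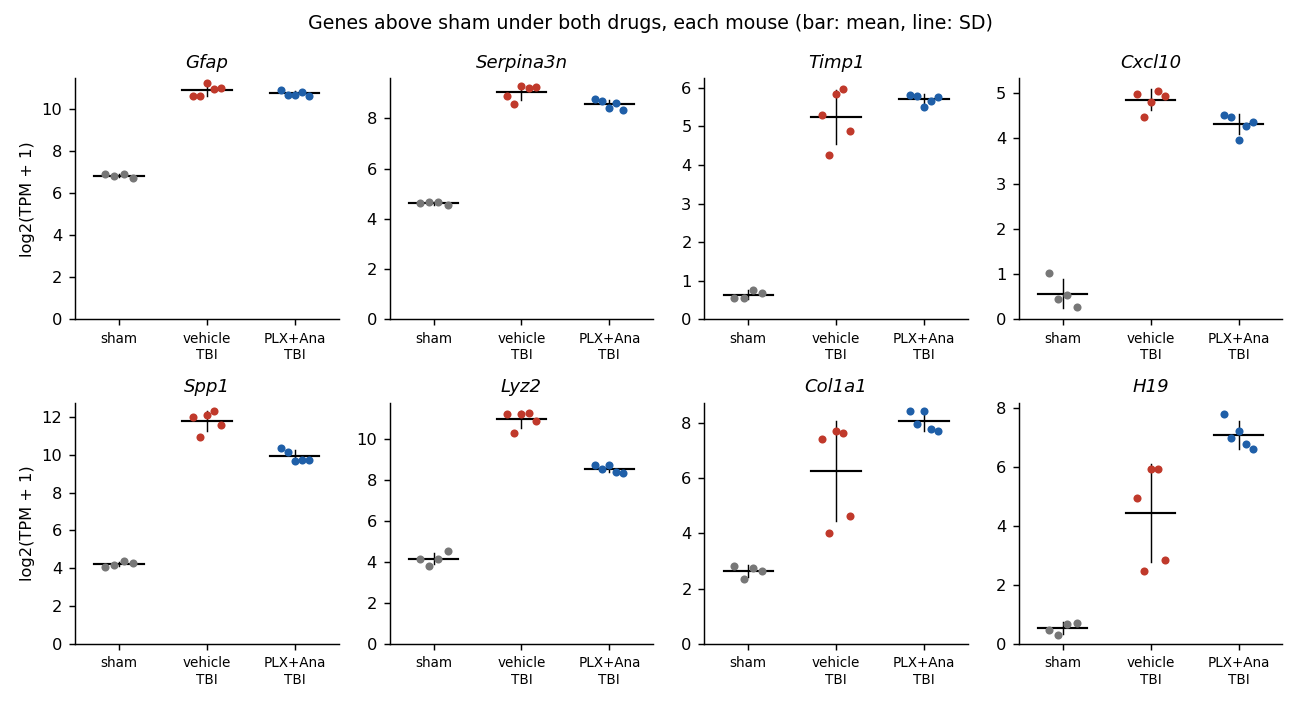
Each point is 1 mouse, with log2(TPM + 1) on the vertical axis, for sham (4 mice), vehicle TBI (5) and PLX3397+Anakinra TBI (5); bars are means and lines SDs. The PLX3397+Anakinra mice lie above all sham mice in every panel, below all vehicle mice for Spp1 and Lyz2, and among or above the vehicle mice for Gfap, Timp1, Col1a1 and H19.

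Interferon genes rose together. All 23 tested members of the type I interferon list were higher than in sham, with a median log2 fold change of 1.57 against 2.21 in vehicle TBI. Type I interferons switch on their target genes through a promoter sequence, the interferon-stimulated response element (ISRE). The upstream sequences of 4 members are shown because the list is defined by this response and the element stands in each of them. Each is a stretch of 120 bases within the 250 bases upstream of the annotated start, taken from the RefSeq promoters of GRCm38.p6 on the gene's strand, with the core of the ISRE (GAAA, any 2 bases, then GAAA again), read on either strand, in capitals (overlapping matches run together). The windows are chr5:92349020-92349139 for Cxcl10, chr8:71537532-71537651 for Bst2 and chr4:156200820-156200939 for Isg15, all on the minus strand, and chr19:34583352-34583471 for Ifit3 on the plus strand. The Ifit3 window is upstream of the start listed with its promoter, but lies inside the gene's annotated span (34583119 to 34588982).
Cxcl10: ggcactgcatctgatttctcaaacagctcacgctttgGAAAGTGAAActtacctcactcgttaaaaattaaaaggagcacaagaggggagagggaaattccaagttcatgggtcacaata
Bst2: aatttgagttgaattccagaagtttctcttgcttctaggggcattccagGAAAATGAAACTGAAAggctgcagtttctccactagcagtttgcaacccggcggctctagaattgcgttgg
Isg15: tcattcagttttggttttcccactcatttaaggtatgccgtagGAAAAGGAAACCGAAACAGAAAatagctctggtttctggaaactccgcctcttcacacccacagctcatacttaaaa
Ifit3: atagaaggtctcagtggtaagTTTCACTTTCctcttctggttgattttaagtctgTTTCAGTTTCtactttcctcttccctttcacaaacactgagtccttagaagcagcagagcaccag
A promoter entry was found for 16 of the 23 members, and 8 of them held this core within 250 bases upstream of a listed start (50%), namely Ifit1, Ifit3, Isg15, Oas1a, Rsad2, Bst2, Stat2 and Cxcl10. Among all 12771 tested genes with an entry, 407 held it (3.19%), and among the 360 higher DEGs with an entry, 34 did (9.44%). A match describes the letters in the window and is no measure of binding.

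Cxcl10, an interferon-induced chemokine that draws T cells (chromosome 5, 92346638 to 92348889), was at 21.8, 21.3, 14.6, 18.2 and 19.4 TPM in the PLX3397+Anakinra mice and at 1.03, 0.3697, 0.455 and 0.1999 TPM in sham, a log2 fold change of 3.74 ± 0.17 (SE; adjusted p = 3.0e-14). Bst2, also called tetherin, which holds budding virus at the cell surface (chromosome 8, 71534255 to 71537472), was at 62.02, 80.8, 61.3, 63.6 and 49.96 TPM against 14.04, 13.4, 14.5 and 12.9 TPM (log2 fold change 2.12, adjusted p = 1.1e-11). Every PLX3397+Anakinra value of both genes lay above every sham value. Ifi27l2a, an interferon-induced gene, was at 10.6 to 22.6 TPM against 0.992 to 3.07 TPM (log2 fold change 2.63, adjusted p = 1.1e-09) and Lgals3bp, a secreted galectin-binding protein, at 83.5 to 136 TPM against 23.2 to 25.9 TPM (log2 fold change 2.14, adjusted p = 3.3e-13). Isg15, a ubiquitin-like modifier, and Ifit3, an antiviral protein of the IFIT family, were chosen for their promoters after their values were seen. Isg15 was at 19.1, 34.2, 23.1, 28.3 and 17.1 TPM against 4.32, 8.79, 3.97 and 5.09 TPM (log2 fold change 1.97, adjusted p = 8.2e-08), and Ifit3 at 45.1, 50.2, 36.3, 37.2 and 36.3 TPM against 11.2, 11.97, 9.77 and 10.8 TPM (log2 fold change 1.81, adjusted p = 7.4e-09). Of the 23 members, 21 were lower than in vehicle (9.6% of all genes were) and none was higher, with a median difference of -0.63.

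Antigen presentation split by class. Of 12 genes of MHC class I presentation, which shows peptides from inside the cell to CD8 T cells, 11 were higher than in sham, with a median of 1.00. B2m, the light chain of class I molecules, was at 605, 591, 427, 531 and 466 TPM against 229.6, 236, 217 and 257 TPM, a log2 fold change of 1.14 ± 0.10 (SE; adjusted p = 1.9e-09). H2-K1, a class I heavy chain from a family of near-identical genes, was at 80.6 to 103 TPM against 34.8 to 43.4 TPM (log2 fold change 1.26, adjusted p = 2.6e-10), and Psmb8, a subunit of the immunoproteasome, at 18.8 to 25.9 TPM against 5.22 to 7.67 TPM (log2 fold change 1.58, adjusted p = 1.4e-09). Of 7 genes of MHC class II, which antigen-presenting cells use to reach CD4 T cells, 2 passed, with a median of 0.37 against 2.27 in vehicle TBI, where all 7 did (26.6% of all genes were higher in vehicle TBI than in sham). Cd74, the invariant chain of class II, was at 12.7, 9.78, 7.77, 8.76 and 10.3 TPM in the PLX3397+Anakinra mice, at 9.04, 7.38, 6.46 and 5.68 TPM in sham and at 58.6, 21.9, 50.3, 54.6 and 39.1 TPM in vehicle. Its difference from sham did not pass (log2 fold change 0.42, adjusted p = 0.10), although it did with only both compared groups in the fit (adjusted p = 0.027). The difference of Cd74 from vehicle was -2.02 ± 0.19 (SE; adjusted p = 1.5e-08). H2-Ab1, a class II beta chain, was among the 2 that passed, at 4.21 to 7.46 TPM against 2.31 to 5.12 TPM (log2 fold change 0.57, adjusted p = 0.0397), and the alpha chain H2-Aa did not (log2 fold change 0.22, adjusted p = 0.39). The class II count was 4 with only both compared groups in the fit and 1 without J03, J04, J10, J08, J15 or J16, H2-Ab1 being the gene lost each time.

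Complement and chemokine genes remained raised in part. Of 16 complement genes, 14 were higher than in sham and none was lower (median 1.21 against 2.09 in vehicle TBI). C4b, a classical pathway component with a near-identical neighbour, was at 155, 119.9, 132, 142 and 119.8 TPM against 18.6, 14.5, 15.6 and 16.5 TPM, a log2 fold change of 2.96 ± 0.09 (SE; adjusted p = 1.3e-17). C1qa, a chain of the C1q initiator made largely by microglia and macrophages, was at 347 to 468 TPM against 100.4 to 118 TPM (log2 fold change 1.91, adjusted p = 1.2e-12) and at 958 to 1385 TPM in vehicle. C3, the central component, rose by 1.96 on the log2 scale (adjusted p = 1.5e-08), and its receptor gene C3ar1 by 2.61 on the log2 scale (adjusted p = 2.3e-13). Cfp, which encodes properdin, was at 10.3 to 17.6 TPM against 11.9 to 13.3 TPM (log2 fold change 0.00, adjusted p = 0.99).

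Of 16 chemokines, 12 were higher and 1 was lower. Ccl2, which recruits monocytes, was at 8.43, 10.97, 5.29, 6.47 and 7.83 TPM against 0, 0.505, 0.311 and 0.546 TPM, a log2 fold change of 2.70 ± 0.18 (SE; adjusted p = 3.1e-11), and Ccl12, a related monocyte chemokine, was at 12.3 to 15.5 TPM against 0 to 1.59 TPM (log2 fold change 3.06, adjusted p = 1.8e-11). Both were lower than in vehicle, with a log2 difference of -0.83 (adjusted p = 0.0014) and -1.06 (adjusted p = 0.00024). The lower chemokine was Cx3cl1, a membrane-bound ligand that neurons present to microglia, at 529 to 637 TPM against 692 to 750.1 TPM (log2 fold change -0.29, adjusted p = 0.00604). Cxcl14 was at 106 to 142 TPM against 104 to 121 TPM (log2 fold change 0.10, adjusted p = 0.24) and did not pass.

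Genes of activated phagocytes lay between the sham and vehicle levels. All 22 tested members were higher than in sham (20.7% of all genes were). None of their values overlapped with sham (16.9% of all genes lay wholly above it). All 22 were lower than in vehicle (9.6% of all genes were). The list summed to 9596 to 12368 TPM in the PLX3397+Anakinra mice, 4095 to 4257 TPM in sham and 18238 to 29064 TPM in vehicle. Lyz2, the lysozyme of macrophages and granulocytes (chromosome 10, 117277541 to 117282272), was at 430.3, 369.6, 426, 336 and 327 TPM against 16.8, 13.1, 16.6 and 21.8 TPM in sham, a log2 fold change of 4.40 ± 0.20 (SE; adjusted p = 2.2e-14). The vehicle mice were at 2360.3, 1248, 2402, 2494 and 1857 TPM, so that 17.5% of the vehicle difference in mean TPM remained. Gpnmb, a transmembrane glycoprotein of lipid-laden phagocytes, was at 109, 97.5, 91.9, 84.6 and 66.6 TPM against 3.29, 3.93, 2.34 and 2.69 TPM (log2 fold change 4.48, adjusted p = 1.9e-14) and at 196 to 332 TPM in vehicle. Lgals3, the carbohydrate-binding galectin of phagocytes, rose by 4.46 on the log2 scale (adjusted p = 3.6e-15). Cd68, a lysosomal protein of phagocytes, was at 136, 139, 109.5, 108 and 96.6 TPM against 15.5, 17.8, 15.3 and 15.1 TPM, a log2 fold change of 2.80 ± 0.13 (SE; adjusted p = 2.4e-14), which was 37.7% of the vehicle difference in mean TPM. For Spp1 that share was 26.1%, with vehicle mice at 4169, 1962, 4473, 5046 and 3037 TPM.

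Of 12 leukocyte surface and signaling genes, 11 were higher than in sham and 1 was lower. Ptprc, which encodes the common leukocyte antigen, was at 6.39, 5.19, 3.602, 4.28 and 4.05 TPM against 1.72, 1.11, 1.81 and 1.52 TPM, a log2 fold change of 1.16 ± 0.13 (SE; adjusted p = 1.4e-07), and at 10.9 to 16.5 TPM in vehicle. Markers of lymphocytes were mostly too low to test: 12 of 15 had a mean under 0.5 TPM, among them the T cell genes Cd3e and Cd8a. Of the 3 tested, 2 were higher than in sham, and 1 was without J10, J17, J08 or J15. All 15 summed to 23.8 to 29.3 TPM in the PLX3397+Anakinra mice and 17.99 to 18.8 TPM in sham. Most of this sum was Cd4, with means of 19.3 TPM and 15.5 TPM in sham. The other higher gene, Ccl5, had means of 4.23 and 0.362 TPM and is also in the chemokine list. Lck, the third gene tested, did not pass (log2 fold change 0.02, adjusted p = 0.92). The summed rise is therefore no count of lymphocytes. Of 15 markers of monocytes and neutrophils, 8 were tested and 6 were higher than in sham (median 0.82), summing to 21.1 to 37.4 TPM over all 15 against 5.39 to 8.45 TPM. Ly6c2, a surface antigen of inflammatory monocytes, had means of 0.964 TPM and 0.137 TPM in sham and did not pass (log2 fold change 0.73, adjusted p = 0.11). It did pass with 0.1 in place of 1 added to TPM (log2 fold change 2.24, adjusted p = 0.0042). It also passed with only both compared groups in the fit (adjusted p = 0.020).

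Homeostatic microglial genes were divided around the sham level. Of 14, 6 were higher and 5 lower than in sham, with a median of 0.12. All 14 were lower than in vehicle (9.6% of all genes were), with a median difference of -1.42. PLX3397 alone, set against the same sham mice, also had 6 higher and 5 lower, with a median of 0.14. Tmem119, a surface protein of microglia, was at 31.7, 25.9, 25.9, 25.2 and 23.4 TPM in the PLX3397+Anakinra mice and at 25.7, 24.7, 25.4 and 23.7 TPM in sham, a log2 fold change of 0.08 ± 0.10 (SE; adjusted p = 0.57) that did not pass, and at 60.5, 51.2, 64.4, 75.7 and 64.4 TPM in vehicle. P2ry12, the ADP receptor of resting microglia (chromosome 3, 59216271 to 59262985), was at 20.02, 13.8, 11.4, 18.8 and 19.5 TPM against 25.9, 29.3, 29.5 and 29.1 TPM in sham, a log2 fold change of -0.76 ± 0.15 (SE; adjusted p = 0.00024), with no overlap. The vehicle mice were at 43.3, 57.6, 58.8, 53.2 and 61.1 TPM. Siglech, a sialic acid-binding lectin of microglia, was lower than in sham with a log2 fold change of -0.68 (adjusted p = 0.00025), Slc2a5, a fructose transporter, with a log2 fold change of -0.84 (adjusted p = 2.4e-06), and Crybb1 with a log2 fold change of -1.05 (adjusted p = 2.4e-05). The higher members were led by Fcrls, an Fc receptor-like protein, at 109.6, 93.1, 81.2, 86.2 and 87.9 TPM against 20.4, 23.6, 25.2 and 27.6 TPM (log2 fold change 1.88, adjusted p = 2.1e-11), followed by Olfml3 (log2 fold change 1.30, adjusted p = 7.5e-10). Cx3cr1, the receptor of Cx3cl1, was at 38.3 to 55.05 TPM against 34.6 to 35.4 TPM (log2 fold change 0.47, adjusted p = 0.00058).

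Genes known from border macrophages, those of the meninges and perivascular spaces, gave a divided picture, and bulk tissue does not show which cells held their RNA. Of 10 border macrophage genes, 5 were higher and 4 lower than in sham. The lower genes had low values, and their count was 0 with a filter of at least 5 TPM on average. Mrc1, the mannose receptor, was at 1.12, 0.651, 0.388, 0.564 and 0.674 TPM in the PLX3397+Anakinra mice, 1.87, 2.07, 3.01 and 2.55 TPM in sham and 5.88, 4.48, 6.74, 7.604 and 5.41 TPM in vehicle. The 3 groups did not overlap, with a log2 fold change from sham of -1.01 ± 0.15 (SE; adjusted p = 6.4e-06) and from vehicle of -2.06 (adjusted p = 1.3e-10). Cd163, the hemoglobin scavenger receptor, was at 0.202 to 0.476 TPM against 0.811 to 1.33 TPM (log2 fold change -0.71, adjusted p = 1.4e-05), and Cbr2, a carbonyl reductase, at 0.839 to 1.81 TPM against 2.36 to 2.899 TPM (log2 fold change -0.73, adjusted p = 0.00082). Stab1, a scavenger receptor, was in contrast at 31.5, 32.7, 34.5, 29.2 and 26.5 TPM against 9.07, 6.697, 8.69 and 9.85 TPM, a log2 fold change of 1.74 ± 0.16 (SE; adjusted p = 8.0e-09), and Folr2, a folate receptor, rose by 1.29 on the log2 scale (adjusted p = 1.5e-06). Stab1 was at 65.1 to 130.2 TPM in vehicle.

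Genes that crossed the sham level were few. Among all genes tested, 13 (0.0753%) were higher than sham in vehicle TBI and lower than sham in PLX3397+Anakinra TBI, both at adjusted p, and 0 had the opposite pattern. The 8 with the largest gap between the TBI groups were Mrc1, Cbr2, P2ry12, Crybb1, Siglech, Clec10a, Selplg and Gm31003. Clec10a, a lectin of macrophages and dendritic cells, was at 0.286 to 0.768 TPM against 0.584 to 1.32 TPM in sham (log2 fold change -0.51, adjusted p = 0.031) and 1.98 to 3.87 TPM in vehicle. Selplg, the P-selectin ligand of leukocytes and microglia, was at 24.4, 23.5, 19.8, 25.3 and 21.6 TPM against 30.8, 25.7, 25.7 and 29.4 TPM (log2 fold change -0.27, adjusted p = 0.019), and the groups did not overlap. The predicted gene Gm31003 was at 1.33 to 2.04 TPM, 2.19 to 3.25 TPM in sham and 3.94 to 6.97 TPM in vehicle (log2 fold change -0.48, adjusted p = 0.016). The call of Clec10a was lost without J10, J17, J07, J08 or J16, that of Selplg without J09, J07 or J16, and that of Gm31003 without J07.

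**Figure D4:**
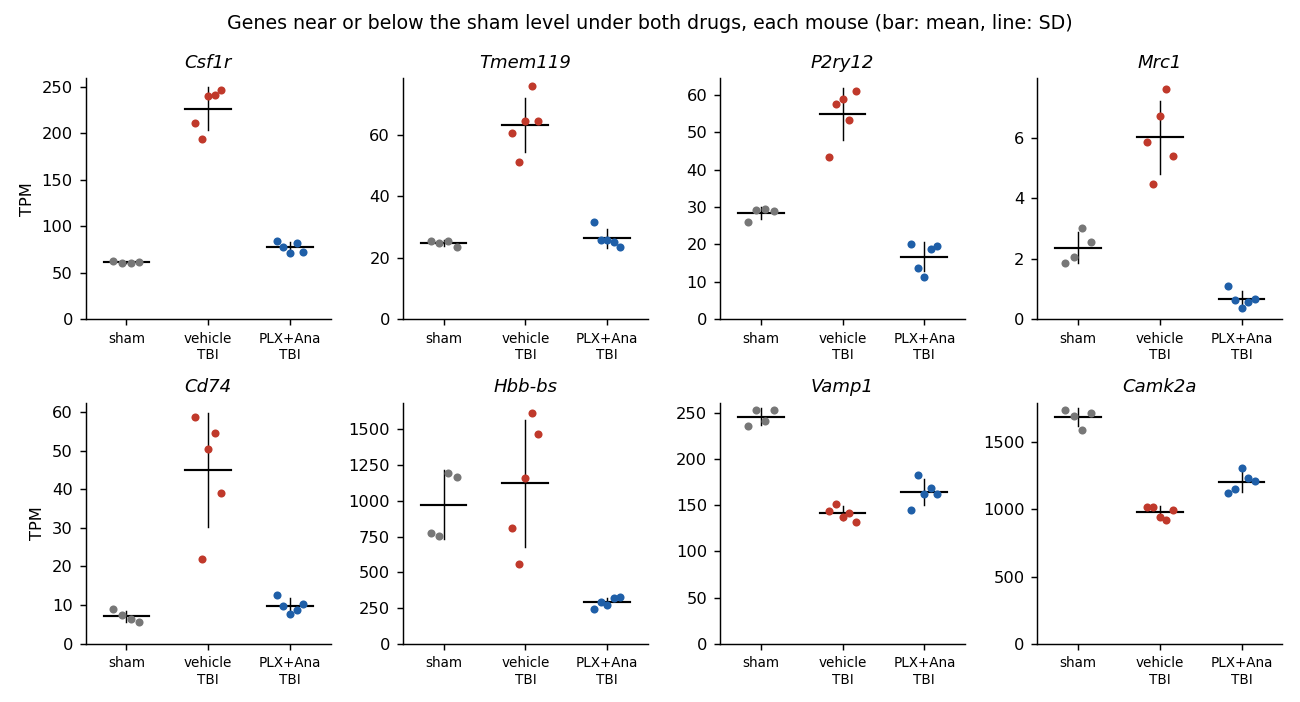
Each point is 1 mouse, with TPM on a linear vertical axis from 0, for sham (4 mice), vehicle TBI (5) and PLX3397+Anakinra TBI (5); bars are means and lines SDs. P2ry12, Mrc1, Hbb-bs, Vamp1 and Camk2a lie below every sham mouse under both drugs, Csf1r lies just above sham, and Tmem119 and Cd74 overlap with it.

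Scar matrix genes were raised throughout. All 22 tested genes were higher than in sham, 21 of them by the DEG rule, with a median of 2.46. Col1a1, which encodes a chain of type I collagen (chromosome 11, 94936224 to 94953042), was at 343, 247, 341, 218 and 207 TPM in the PLX3397+Anakinra mice and at 6.11, 4.05, 5.66 and 5.14 TPM in sham, a log2 fold change of 5.43 ± 0.55 (SE; adjusted p = 2.3e-08). Col3a1, the chain of fibrillar type III collagen, was at 321, 225, 213, 190.0 and 178 TPM against 2.68, 1.32, 2.002 and 2.195 TPM (log2 fold change 6.20, adjusted p = 9.6e-09), and Lox, the enzyme that cross-links collagen, was at 19.5, 18.9, 19.1, 14.99 and 15.5 TPM against 0.518, 0.413, 0.3298 and 0.268 TPM (log2 fold change 3.74, adjusted p = 3.4e-07). Postn, the matrix protein periostin, was at 64.8, 33.9, 39.03, 28.3 and 25.6 TPM against 3.09, 2.87, 4.75 and 3.49 TPM (log2 fold change 3.05, adjusted p = 5.3e-07), and Eln, elastin, at 67.2 to 171 TPM against 7.56 to 9.68 TPM (log2 fold change 3.34, adjusted p = 2.0e-06). No PLX3397+Anakinra value of these genes overlapped with sham.

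How many scar genes stood above vehicle depended on 2 vehicle mice. Against all 5 vehicle mice, 17 of the 22 scar genes were higher in PLX3397+Anakinra TBI (7.88% of all genes were). None was lower (9.6% of all genes were), and the median difference was 1.05. Without vehicle mice J17B and J20B, an alternative chosen after the data were seen, 6 remained higher at adjusted p and 0 were lower. The median difference was then 0.42, and 1327 of all 17267 genes tested were higher. The vehicle mice were at 169, 15.1, 206, 196 and 23.4 TPM for Col1a1, in the order J01B, J17B, J18B, J19B and J20B, so that J17B and J20B lay closer to sham than to the other 3. Col1a1 differed from vehicle by 1.79 ± 0.51 on the log2 scale (SE; adjusted p = 0.017) with both and by 0.48 on the log2 scale (adjusted p = 0.24) without them, and Col3a1 by 1.91 on the log2 scale (adjusted p = 0.019) and 0.44 (adjusted p = 0.22). For H19 the vehicle mice were at 29.96, 4.61, 60.2, 60.4 and 6.14 TPM, and the difference was 2.66 (adjusted p = 0.00041) with both and 1.48 (adjusted p = 0.0026) without them. Postn also passed both ways, at 1.73 (adjusted p = 0.0011) and 0.99 (adjusted p = 0.019). Leaving out J20B alone gave 10 scar genes higher than in vehicle, beside 1021 of all genes tested. With only the PLX3397+Anakinra and vehicle groups in the fit, 8 of the 22 were higher, beside 907 of all genes tested. In the single-drug groups, set against the same sham mice, Col1a1 had log2 fold changes of 5.25 (PLX3397) and 5.69 (Anakinra), and H19 of 6.29 and 6.11.

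Of 14 basement membrane genes, 11 were higher than in sham (median 0.65), led by Nid1, the linker protein nidogen, at 20.6 to 31.1 TPM against 5.498 to 7.299 TPM (log2 fold change 1.82, adjusted p = 1.5e-07), and by the type IV collagen gene Col4a1 (log2 fold change 1.38, adjusted p = 8.1e-06). Of 18 matrix proteases and inhibitors, 14 were higher and 1 lower. Of 16 annexin and S100 genes, which encode calcium-binding proteins, 14 were higher and 1 lower, among them S100a6 at 270.3, 297, 211, 228 and 217 TPM against 44.1, 46.99, 35.7 and 31.99 TPM (log2 fold change 2.60, adjusted p = 1.6e-11), with a 95% interval of its difference from vehicle of -0.43 to 0.23. Of 20 endothelial and barrier genes, 13 were higher than in sham, with a median of 0.31. Slc2a1, the glucose transporter of the barrier, was at 150.2 to 212 TPM against 133 to 151 TPM and did not pass (log2 fold change 0.21, adjusted p = 0.057), although it did without J03 or J17. Of 10 mural cell genes, 5 were higher than in sham, and of 10 meningeal genes 4 were higher and 1 lower, the lower one being lost without J03, J10, J17, J07, J08 or J16. A mural gene was lower without J09 or J08.

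Proliferation genes were raised in every member. All 21 cell cycle genes were higher than in sham without overlap, with a median of 1.27. Over all genes tested, 20.7% were higher than in sham and 16.9% lay wholly above it. Top2a, the topoisomerase of dividing cells, was at 11.9, 14.9, 7.96, 11.2 and 12.1 TPM against 1.49, 1.63, 1.27 and 1.43 TPM, a log2 fold change of 2.34 ± 0.15 (SE; adjusted p = 1.7e-11), and Ccnb1, the mitotic cyclin, was at 5.28 to 9.85 TPM against 0.541 to 0.703 TPM (log2 fold change 2.39, adjusted p = 1.2e-11). Rrm2, a subunit of ribonucleotide reductase, rose by 2.15 on the log2 scale (adjusted p = 2.6e-11). Of the 21 genes, 14 were lower than in vehicle (9.6% of all genes were). Which cells were dividing cannot be read from bulk tissue. Oligodendrocyte lists rose by small steps, with 10 of 12 progenitor genes (median 0.52) and 9 of 11 genes of mature oligodendrocytes (median 0.33) higher than in sham and none lower.

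Lipid genes parted between export and synthesis. Of 13 lipid transport genes, 12 were higher than in sham (median 0.96 against 1.72 in vehicle). Abca1, the pump that loads cholesterol onto lipoproteins, was at 50.8, 48.4, 42.3, 45.9 and 43.4 TPM against 17.03, 16.3, 19.2 and 18.3 TPM, a log2 fold change of 1.34 ± 0.08 (SE; adjusted p = 3.8e-12), and was lower than in vehicle, with a log2 difference of -0.95 (adjusted p = 1.3e-09). Lcat, which esterifies cholesterol on lipoproteins, was at 91.3 to 113 TPM against 33.3 to 40.97 TPM (log2 fold change 1.43, adjusted p = 2.1e-13) and overlapped with vehicle (73.4 to 101 TPM). Of 18 genes of cholesterol biosynthesis, 11 were lower than in sham and none was higher (median -0.23). Without J15 the count of lower genes was 7. Of the 18, 14 were higher than in vehicle (7.88% of all genes were). Of 13 genes of heme and iron handling, 10 were higher and 2 lower, among the higher ones the heme oxygenase Hmox1 (4.47) with an adjusted p of 2.7e-12.

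Genes of synapses and ion channels were lower than in sham, and no member of the neuronal lists was lower by 1 or more on the log2 scale. Of 21 genes of synaptic vesicles and release, 19 were lower (18.1% of all genes were) and none was higher. Their median was -0.44 against -0.67 in vehicle TBI, and 15 were higher than in vehicle (7.88% of all genes were). Vamp1, a vesicle fusion protein, was at 145, 183, 163, 169 and 162 TPM against 235, 254, 242 and 253 TPM, a log2 fold change of -0.58 ± 0.06 (SE; adjusted p = 5.0e-08), with vehicle mice at 144, 152, 137, 142 and 132 TPM. Unc13a, which primes vesicles, was at 124 to 152 TPM against 194 to 223 TPM (log2 fold change -0.57, adjusted p = 2.1e-05). The members that did not pass were Slc32a1, the vesicular GABA transporter (log2 fold change -0.12, adjusted p = 0.42), and Sv2c, a vesicle protein (log2 fold change 0.12, adjusted p = 0.50).

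Among 21 glutamate receptor and scaffold genes, 13 were lower and none was higher. Camk2a, the abundant kinase of excitatory synapses, was at 1120.3, 1149, 1312, 1235 and 1209 TPM against 1741, 1699, 1596 and 1718 TPM, a log2 fold change of -0.49 ± 0.07 (SE; adjusted p = 2.8e-06). The vehicle mice were at 1016, 1018, 942, 919 and 996 TPM, below every PLX3397+Anakinra mouse, and the difference between the TBI groups was 0.30 ± 0.06 (SE; adjusted p = 0.0015). Grm2, a presynaptic glutamate receptor, was lower with a log2 fold change of -0.58 (adjusted p = 0.00025) and Nrgn, which binds calmodulin in dendrites, with a log2 fold change of -0.44 (adjusted p = 7.3e-05), while Shank3, a scaffold protein, was at 88.9 to 134 TPM against 123 to 155 TPM and did not pass (log2 fold change -0.27, adjusted p = 0.11), although it did without J09.

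Of 28 potassium channel genes, 22 were lower and 1 was higher, with a median of -0.32. Kcnj9, a G protein-gated channel, was at 96.7, 98.7, 112, 107 and 111 TPM against 167, 157, 140.2 and 154 TPM, a log2 fold change of -0.55 ± 0.07 (SE; adjusted p = 2.8e-07), and was higher than in vehicle by 0.35 on the log2 scale (adjusted p = 0.00017). The higher gene was Kcnk6, at 4.59 to 5.23 TPM against 2.42 to 3.995 TPM (log2 fold change 0.49, adjusted p = 0.00038) and at 10.2 to 14.2 TPM in vehicle. Sodium and calcium channels had 14 of 22 genes lower and the GABA system 10 of 17, with none higher in either list. Upper-layer cortex genes were lower in 6 of 9, with a median of -0.39, whereas deep-layer genes were lower in 3 and higher in 2 of 11, with a median of -0.04. The 2 higher deep-layer genes were reduced to 1 without J03, J04, J07, J08 or J16. Hippocampal genes were lower in 4 of 10 and neuropeptides in 4 of 14, beside 18.1% of all genes lower and 20.7% higher. Another potassium channel gene was higher without J07, and a neuropeptide gene was higher without J15. TPM is a share of each library, in which glial, phagocyte and matrix RNA rose. Fewer neurons, less RNA per neuron and a smaller share of neuronal RNA beside that rise cannot be told apart.

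Immediate early genes, which neurons switch on with activity, were higher in 2 and lower in 6 of 18, circadian clock genes were lower in 10 of 16, and genes of oxidative phosphorylation in 8 of 22 with a median of -0.08. Over all genes tested, 20.7% were higher and 18.1% lower than in sham. Without J15, 5 immediate early genes were higher, without J16 1 was, and without J08 5 genes of oxidative phosphorylation were lower. Genes of injured neurons were higher in 8 and lower in 2 of 15 (median 0.25), p53 targets in 12 and 1 of 17, and heat shock genes in 6 and 0 of 12. Choroid plexus genes, which would mark tissue of the ventricle in the sample, were higher in 1 of 10, and in 2 without J15. With all mice, the counts of higher immediate early and choroid plexus genes were below the share over all genes. The lower p53 target did not pass without J03, J09, J10, J08 or J16, and without J17 another was lower. Of 7 genes of the CSF1R axis, 3 were higher and 2 lower.

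The hemoglobin list had the lowest median of the 48 lists. The 5 tested genes were the 4 globins and Alas2, the heme synthesis enzyme of red cell precursors. All were lower than in sham without overlap, with a median log2 fold change of -1.62. Over all genes tested, 18.1% were lower than in sham and 14% lay wholly below it. None of the 5 passed in vehicle TBI (median 0.15). Hbb-bs, a beta globin (chromosome 7, 103826523 to 103827928), was at 245, 290.4, 271, 317 and 324 TPM in the PLX3397+Anakinra mice, 775, 756, 1198 and 1164 TPM in sham and 811, 556, 1159, 1617 and 1469 TPM in vehicle. Its log2 fold change was -1.72 ± 0.23 (SE; adjusted p = 1.5e-06) from sham and -1.85 (adjusted p = 4.6e-07) from vehicle. The alpha globin Hba-a1 was at 250.2, 277, 268, 295 and 320.3 TPM against 746, 687, 988 and 1048 TPM (log2 fold change -1.60, adjusted p = 3.3e-06). Hba-a1 and Hba-a2, and Hbb-bs and Hbb-bt, are near-identical pairs whose reads can be split between copies, so that only their common direction is sure. In the single-drug groups, set against the same sham mice, the log2 fold change of Hbb-bs was -1.76 with PLX3397 and 0.12 with Anakinra. Alas2 was at 1.32 to 2.9003 TPM against 3.84 to 9.299 TPM (log2 fold change -1.12, adjusted p = 0.0014). Globin RNA is carried mainly by red cells and their precursors, and the amount of blood in each piece of tissue was not measured.

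The remaining lower DEGs were Igfn1, C730002L08Rik, Oxt, Avp and Gh. Igfn1, a protein related to muscle sarcomere components (chromosome 1, 135953205 to 136040925), was at 4.41, 5.23, 5.11, 4.74 and 5.87 TPM against 13.6, 12.9, 11.3 and 13.1 TPM, a log2 fold change of -1.18 ± 0.13 (SE; adjusted p = 1.5e-07), with vehicle mice at 5.42, 4.696, 3.92, 3.96 and 5.14 TPM. The uncharacterized C730002L08Rik was at 4.62, 3.51, 4.66, 5.098 and 5.41 TPM against 9.06, 10.98, 9.14 and 11.4 TPM (log2 fold change -0.98, adjusted p = 3.5e-05). Oxt, Avp and Gh encode hormones of the hypothalamus and pituitary and overlapped between the groups, so that the naming rule did not select them. Oxt ran from 0.479 to 13.1 TPM among the sham mice and from 0 to 1.52 TPM among the PLX3397+Anakinra mice, a log2 fold change of -1.94 (adjusted p = 0.071). Avp ran from 2.22 to 33.9 TPM and from 0.404 to 3.28 TPM, a log2 fold change of -1.85 (adjusted p = 0.042), and Gh ran from 0 to 21.05 TPM and from 0 to 2.93 TPM, a log2 fold change of -1.74 (adjusted p = 0.064). The call of Avp was lost without J03, J04, J10, J15 or J16, with a log2 fold change of -1.20 (adjusted p = 0.21) without J16. Oxt passed without J08, at -2.56 (adjusted p = 0.026), and Gh passed without J08, at -2.66 (adjusted p = 0.0029), or J17, at -1.98 (adjusted p = 0.047).

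How much of the injury response differed from that of vehicle TBI was read from PLX3397+Anakinra minus vehicle, in which the sham mice cancel. At adjusted p below 0.05, 1360 genes were higher (7.88%) and 1658 lower (9.6%) than in vehicle. Of the 3578 genes above sham, 1132 were below vehicle (6.56% of the genes tested) and 128 above it (0.741%), and for 2560 (14.8%) the 95% interval of the difference from vehicle lay within 1.5 times in either direction. Of the 3124 genes below sham, 798 were above vehicle (4.62%) and 51 below it (0.295%), and for 3060 (17.7%) that interval lay within 1.5 times. These classes overlap, because a small difference can pass the test and still lie within 1.5 times. Over all genes tested, the median absolute difference from vehicle was 0.10 on the log2 scale. The share of all genes within 1.5 times was not counted, so these counts show no likeness to vehicle particular to genes that differ from sham. Without vehicle J18B or J19B the count of genes higher than in vehicle was 860 or 888.

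Genes raised to much the same level as in vehicle, J17B and J20B included, were led by Gfap, Vim, Lgals1, C4b, Klk6 and S100a6, the 6 largest rises whose interval lay within 1.5 times. Their intervals without J17B and J20B were not examined. Without both, the median difference from vehicle was -0.28 in place of -0.16 for reactive astrocyte genes. For annexin and S100 genes it was -0.18 in place of -0.06. Lgals1, a galectin of astrocytes, vessels and fibroblasts, was at 375, 358, 261, 252 and 243 TPM against 38.5, 40.9, 34.3 and 32.7 TPM in sham, a log2 fold change of 2.97 ± 0.21 (SE; adjusted p = 6.4e-11), and its interval against vehicle was -0.47 to 0.36. Klk6, a secreted serine protease, was at 82.6, 72.3, 62.8, 80.5 and 64.8 TPM against 11.7, 12.99, 11.4 and 8.66 TPM (log2 fold change 2.60, adjusted p = 3.1e-13), with an interval of -0.53 to 0.00. Of these, C4b was still lower than in vehicle, with a log2 difference of -0.33 (adjusted p = 0.0073). On the lower side the 6 were Igfn1, C730002L08Rik, Gm29804, Spata32, Ovol2 and Gucy2g. Gm29804 was at 34.9, 28.5, 31.96, 16.5 and 39.4 TPM against 55.3, 50.9, 51.9 and 61.7 TPM (log2 fold change -0.89, adjusted p = 3.4e-05), and Ovol2, a transcription factor, at 3.78 to 5.65 TPM against 8.35 to 10.4 TPM (log2 fold change -0.85, adjusted p = 0.00012). Spata32 had a log2 fold change of -0.86 (adjusted p = 6.1e-06) and Gucy2g of -0.85 (adjusted p = 2.8e-06).

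Among genes that differed from both sham and vehicle, the 6 furthest below vehicle were Arg1, Pf4, Ms4a7, Wfdc17, F13a1 and Lyz2, all known from macrophages. Arg1, the arginase of repair-type macrophages, was at 3.01, 4.598, 3.26, 5.299 and 3.98 TPM in the PLX3397+Anakinra mice, 0.289, 0.0919, 0 and 0.224 TPM in sham and 78.8, 20.4, 40.6, 42.4 and 31.6 TPM in vehicle. It was above sham by 2.11 on the log2 scale (adjusted p = 2.3e-06) and below vehicle, with a log2 difference of -3.01 ± 0.27 (SE; adjusted p = 8.5e-09). Pf4, a chemokine of platelets and macrophages, was at 11.6, 5.45, 7.48, 6.43 and 6.83 TPM, 5.31, 2.9999, 4.26 and 2.06 TPM in sham and 73.04, 37.7, 68.9, 87.9 and 47.8 TPM in vehicle, so that 6.55% of the vehicle difference remained. Wfdc17, a small secreted protein of macrophages, was at 16.6, 18.03, 14.9, 15.6 and 12.8 TPM against 1.82, 2.03, 1.33 and 1.88 TPM (log2 fold change 2.59, adjusted p = 4.5e-12) and differed from vehicle, with a log2 difference of -2.49 (adjusted p = 4.3e-11), and F13a1, a subunit of the clotting factor XIII that macrophages carry, differed from vehicle, with a log2 difference of -2.49 (adjusted p = 2.5e-10). The 6 genes furthest above vehicle were H19, Col3a1, Col1a1, Lrrc17, Postn and Eln. Lrrc17, a secreted leucine-rich repeat protein, was at 12.3, 8.75, 10.3, 8.49 and 8.35 TPM, at 0.194, 0.185, 0.05698 and 0.1002 TPM in sham and at 5.39, 0.0616, 4.08, 6.54 and 0.176 TPM in vehicle, where J17B and J20B were again the low mice. Its difference from vehicle was 1.74 (adjusted p = 0.0054) with both and 0.75 (adjusted p = 0.084) without them, and that of Eln was 1.70 (adjusted p = 0.0062) and 0.65 (adjusted p = 0.066), so that of these 6 H19 and Postn passed both ways.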

How the data were processed

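RNA was sequenced from a brain quadrant of male mice, 1 polyA library per mouse. Per the labels and methods, the authors mapped paired-end reads to the mouse genome (GRCm38 in the submitters' processing notes) in CLC Genomics Workbench, counted them per gene, and deposited the values as TPM, which the methods also call CPM. The strand setting was not given in the sources used here, so that overlapping and antisense genes are uncertain. The low values in each deposited column of TPM are not whole multiples of 1 read, so depth is unknown and no counting interval is given. Other deposited tables hold the same TPM rounded, or the authors' own p-values and F values, and were not used.

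From the deposited TPM, log2(TPM + 1) was fitted in limma 3.58.1 (R 4.3.3) with 1 mean per group over all 24 libraries and a variance trend, for the 17267 genes averaging 0.5 TPM or more. A log2 fold change on this scale understates changes of low genes. P-values were adjusted by Benjamini-Hochberg over all genes tested and refer to the spread between mice. The DEG rule was taken from the methods, with the limma p. Named genes were the drug targets, the largest changes in each direction and list, and genes that crossed sham, stayed near vehicle or differed from it, as well as Isg15, Ifit3, Lcn2, Oxt, Avp, Gh and genes named only for a promoter motif. Cd4, Ccl5 and Lck, given for the lymphocyte list, were left out of the 126 genes checked for outlying mice and under the alternatives. The comparison, members and gene lists were chosen with earlier results of these data known. A few members of the lists are not reported here. Alternatives changed the pseudocount, filter, scaling, samples, variance model, DEG limits and each mouse in turn.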

Additional observations from a re-analysis of the deposited data

Results flagged for a closer look

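In 13 of the 252 groups of values examined for the named genes, 1 mouse stood apart from the rest of its group by Dixon's test, and chance gives about 1 in 20. PLX3397+Anakinra mouse J09 stood apart 4 times, for Aqp4 (144 TPM against 204 to 215 TPM in the other mice of the group), Lcn2 (54.8 TPM against 12.2 to 17.4 TPM), Siglech (4.26 TPM against 6.74 to 7.397 TPM) and Slc2a1 (212 TPM against 150.2 to 166 TPM). In the same group, J17 stood apart for Jak1 (109.9 TPM against 103 to 105 TPM) and J10 for Kit (23.3 TPM against 19.7 to 20.7 TPM).

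Among the sham mice, J07 stood apart for P2ry12 (25.9 TPM against 29.1 to 29.5 TPM), Slc32a1 (206 TPM against 175 to 176 TPM) and Il1rn, which was at 0.0504 TPM and listed at 0 in the other 3 mice. Sham J15 stood apart for Clec10a (0.584 TPM against 1.23 to 1.32 TPM) and Lcn2 (4.55 TPM against 0 to 0.516 TPM), J08 for Cd68 (17.8 TPM against 15.1 to 15.5 TPM) and J16 for C3ar1 (1.64 TPM against 1.199 to 1.25 TPM). The calls of Aqp4, Lcn2, Siglech, P2ry12, Cd68, C3ar1 and Kit kept their direction and their side of the threshold without the mouse that stood apart.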

How the results depend on the processing

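Of 1873 values of the 126 named genes under the alternatives, 1820 kept their direction and their side of the threshold, and none reversed. A fold of at least 2 on top of the adjusted p, which is a stricter rule by construction, left 611 of the 3578 genes higher than in sham and 9 of the 3124 lower. Lowering the limit on the difference to 1 TPM, which admits more genes by construction, gave 839 higher and 30 lower DEGs, and an unequal-variance test on TPM gave 6 lower DEGs in place of 10, for which the cause was not tested. Leaving out 1 mouse gave 3245 to 3594 genes higher and 2602 to 3262 lower than in sham, and 458 to 511 higher and 8 to 13 lower DEGs. Against vehicle it gave 860 to 1600 higher and 1310 to 1846 lower, the counts of 860 and 888 being those without J18B and J19B, for which the cause was not tested. Without J17B and J20B together these counts were 1327 and 1716. The other planned settings kept these counts within 1.5 times. Of 1440 counts of list members, 73 moved by more than that. Median-ratio scaling moved the median log2 fold change over all genes from -0.0056 to 0.00063. No paired analysis was possible because the PLX3397+Anakinra and sham mice share no animal number. Depth is unknown, so the precision of low genes rests on the spread between mice alone. No group received the drugs without injury, and no sham mouse had a craniotomy.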
